A study of Mus musculus with 38 samples.

Results

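Blood vessels in the kidney and in its tumours were followed through 34 genes that mark their cells, of the 21705 genes in an RNA-seq table of 38 mouse libraries. The genes were picked by symbol from a fixed list of endothelial and mural cell genes, and all 34 symbols were found in the table. They fall into 10 endothelial surface, junction and secreted genes, 3 endothelial transcription factors, 7 endothelial receptors, 6 vascular ligands and tip cell genes and 8 mural and mesenchymal genes. The study drove MYC in renal tubule cells of mice, alone or with loss of Vhl and of Ink4a/Arf, and sequenced tumours, normal kidney and cell lines grown from tumours. Normal kidney (5 libraries, 2 named B6 and 3 named KT) came from wild type mice given vehicle. MYC tumours (3 libraries, labelled MYC+) came from Ksp-rtTA; Tet-O-MYC mice, in which doxycycline (Dox) turns on MYC in cells where the Ksp cadherin promoter is active. VM tumours (3 libraries, labelled Vhl-/-; MYC +) carried the same transgenes and Vhl F/F alleles deleted by the tamoxifen-induced KspCre ERT2 recombinase. VIM tumours (3 libraries) carried all of these on a germline Ink-/-/Arf-/- background, so that their vessels lacked Ink4a/Arf as well, whereas deletion of Vhl was limited to cells in which the Ksp promoter acts. Every tumour library is labelled as maintained on Dox. The other 24 libraries came from 3 lines, MYC-2983, VM-3055 and VIM-3039, with 4 maintained on Dox and 4 after its withdrawal from each. Each line is a single tumour line in culture and served as the reference without vessels, although MYC-2983 expressed fibroblast and contractile genes and was not tested for stromal cells. Ages of the animals are not given in the labels. The 2 libraries MYC tumour 2 and MYC tumour 3 carry the number of the same mouse, 2983, and were averaged before each test, which left 2 MYC units. The MYC-2983 line carries that mouse number too, and VM tumour 2 carries the number of the VM-3055 line. Where the labels do not say that libraries of a group came from separate cultures or animals, p-values measure only the spread between those libraries, which may be technical.

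Endothelial cells line vessels and are held together by junction proteins such as PECAM1 and VE-cadherin (Cdh5). They grow towards vascular endothelial growth factors, which bind the receptor kinases encoded by Kdr, Flt1 and Flt4. Angiopoietins, bound by the TIE receptors Tek and Tie1, steady or loosen the vessel wall, and PDGF-B from endothelium recruits mural cells, the pericytes and smooth muscle cells that carry PDGFRB and the chondroitin sulphate proteoglycan NG2 (Cspg4). In kidney this endothelium includes the fenestrated glomerular and peritubular capillaries, and in clear cell carcinoma loss of VHL stabilises hypoxia-inducible factors, which induce several vessel growth signals.

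Promoters of 6 members are shown because they span the outcomes found here. Kdr, Tek, Tie1, Emcn and Flt1 were far lower in tumours than in kidney, whereas Egfl7 did not pass the test against kidney in any genotype. Flt1 and Egfl7 were also expressed by every tumour cell line. The sequences are RefSeq promoters on GRCm38.p6, from 250 bases before to 50 bases after the start of the gene, 5′ to 3′ on the strand of the gene, with matches to the ETS-type letters AGGAAG and the SOX-type letters AACAAT on either strand in capitals. They lie at chr5:75978406-75978705 (Kdr, minus strand), chr4:94739039-94739338 (Tek, plus), chr4:118489800-118490099 (Tie1, minus), chr3:137340828-137341127 (Emcn, plus), chr5:147725962-147726261 (Flt1, minus) and chr2:26580833-26581132 (Egfl7, plus, the first of its 3 promoters).
Kdr: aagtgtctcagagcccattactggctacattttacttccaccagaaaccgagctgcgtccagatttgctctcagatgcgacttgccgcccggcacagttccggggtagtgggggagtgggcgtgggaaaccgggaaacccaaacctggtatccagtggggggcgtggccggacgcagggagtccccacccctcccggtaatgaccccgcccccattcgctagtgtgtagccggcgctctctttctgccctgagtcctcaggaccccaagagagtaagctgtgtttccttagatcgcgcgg
Tek: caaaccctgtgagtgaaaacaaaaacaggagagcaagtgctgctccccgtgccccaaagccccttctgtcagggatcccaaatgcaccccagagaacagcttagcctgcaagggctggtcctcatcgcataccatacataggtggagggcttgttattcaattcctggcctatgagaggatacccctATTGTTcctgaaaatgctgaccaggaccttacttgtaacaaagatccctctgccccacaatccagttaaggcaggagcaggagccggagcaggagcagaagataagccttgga
Tie1: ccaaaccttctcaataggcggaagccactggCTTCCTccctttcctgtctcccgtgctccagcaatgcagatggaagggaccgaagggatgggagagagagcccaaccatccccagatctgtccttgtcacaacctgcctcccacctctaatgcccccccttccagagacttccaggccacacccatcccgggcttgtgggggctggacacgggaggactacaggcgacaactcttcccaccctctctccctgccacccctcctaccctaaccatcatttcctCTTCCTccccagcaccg
Emcn: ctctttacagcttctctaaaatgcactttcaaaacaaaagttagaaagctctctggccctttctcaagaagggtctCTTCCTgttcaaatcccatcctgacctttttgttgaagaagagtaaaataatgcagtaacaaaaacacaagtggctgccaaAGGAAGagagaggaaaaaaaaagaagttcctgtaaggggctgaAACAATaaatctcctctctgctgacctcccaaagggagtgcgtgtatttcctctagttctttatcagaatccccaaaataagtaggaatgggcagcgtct
Flt1: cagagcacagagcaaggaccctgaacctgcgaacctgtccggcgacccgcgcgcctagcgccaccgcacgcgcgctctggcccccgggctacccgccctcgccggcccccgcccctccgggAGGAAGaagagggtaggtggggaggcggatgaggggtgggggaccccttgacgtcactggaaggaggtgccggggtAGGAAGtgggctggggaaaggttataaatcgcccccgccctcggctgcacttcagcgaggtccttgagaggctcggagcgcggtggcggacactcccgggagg
Egfl7: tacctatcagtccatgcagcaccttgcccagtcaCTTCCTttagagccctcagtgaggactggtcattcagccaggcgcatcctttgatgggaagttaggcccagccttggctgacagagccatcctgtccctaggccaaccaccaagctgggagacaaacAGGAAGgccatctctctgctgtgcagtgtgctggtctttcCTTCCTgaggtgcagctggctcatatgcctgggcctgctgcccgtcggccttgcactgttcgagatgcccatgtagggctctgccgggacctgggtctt

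AGGAAG occurred 2 times in the Tie1, Emcn and Flt1 windows and 3 times in that of Egfl7, and AACAAT occurred 1 time in those of Tek and Emcn. The Kdr window held neither. The promoter table matched 20 of the 34 members, with 25 promoters. AGGAAG was found in 9 of these 25 promoters (8 members), against 35.4% of the 32851 promoters in the table, and AACAAT in 4 of the 25, against 10.7%. The hypoxia response letters ACGTG were found in 1 of the 25, that of Notch3, against 19.6% of all promoters. The longer ETS letters CCGGAAGT (3.89%), the E-box CACGTG (7.15%, which contains ACGTG) and the CArG box of serum response factor (1.63%) were found in no promoter of a member. AGGAAG thus stood in windows of members at or under the detection floor in the cell lines (Tie1, Emcn) and of members well above it there (Flt1, Egfl7). A match describes letters in a window and was not tested as a binding site.

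The engineered alleles were checked before the members were read. Vhl stood at 40.2 to 79.9 units in VM and 219 to 312 units in VIM tumours, against 468 to 560 in MYC tumours and 612 to 772 in normal kidney. Cdkn2a stood at 30.1 to 95.5 units in VIM tumours, 3392 to 4347 in VM tumours, 59.3 to 2872 in MYC tumours and 0 to 3.80 in kidney. The transgene has no row of its own in the table. The mouse Myc row was 208 to 801 units in tumours against 40.7 to 119 in kidney, but in the 3 lines it was lower with Dox (means of 676, 384 and 381 units) than without (1831, 1364 and 1479 units). Units are gene-level estimates on a scale whose upper quartile is 1000 in every library. They are not divided by gene length, so levels are compared between libraries and never between genes. Estimated reads per library ran from 8.22 to 15.5 M in tissue and from 12.4 to 36.6 M in cells, and a floor of 3 reads was worth 2.80 to 5.65 units in tissue and 1.16 to 3.34 units in cells.

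Some libraries stood apart over most members. Kidney 5 was the highest of 5 kidneys for 29 of 34 members, MYC tumour 2 the highest of its group for 28 and VM tumour 1 for 32. MYC tumours 2 and 3, from a single mouse, differed by a median of 6.26-fold over the members, with 26 members more than 2-fold higher in tumour 2. Markers of normal tubule also varied, and Umod, made by the thick ascending limb, was 2475 units in MYC tumour 2 and 3228 in VIM tumour 2. The summed level of 10 tubule genes lay outside the kidney range in every tumour, at 10122 to 28828 units against 232301 to 325685. In bulk tissue, fewer vessel cells and less RNA per vessel cell cannot be told apart.

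**Figure D1:**
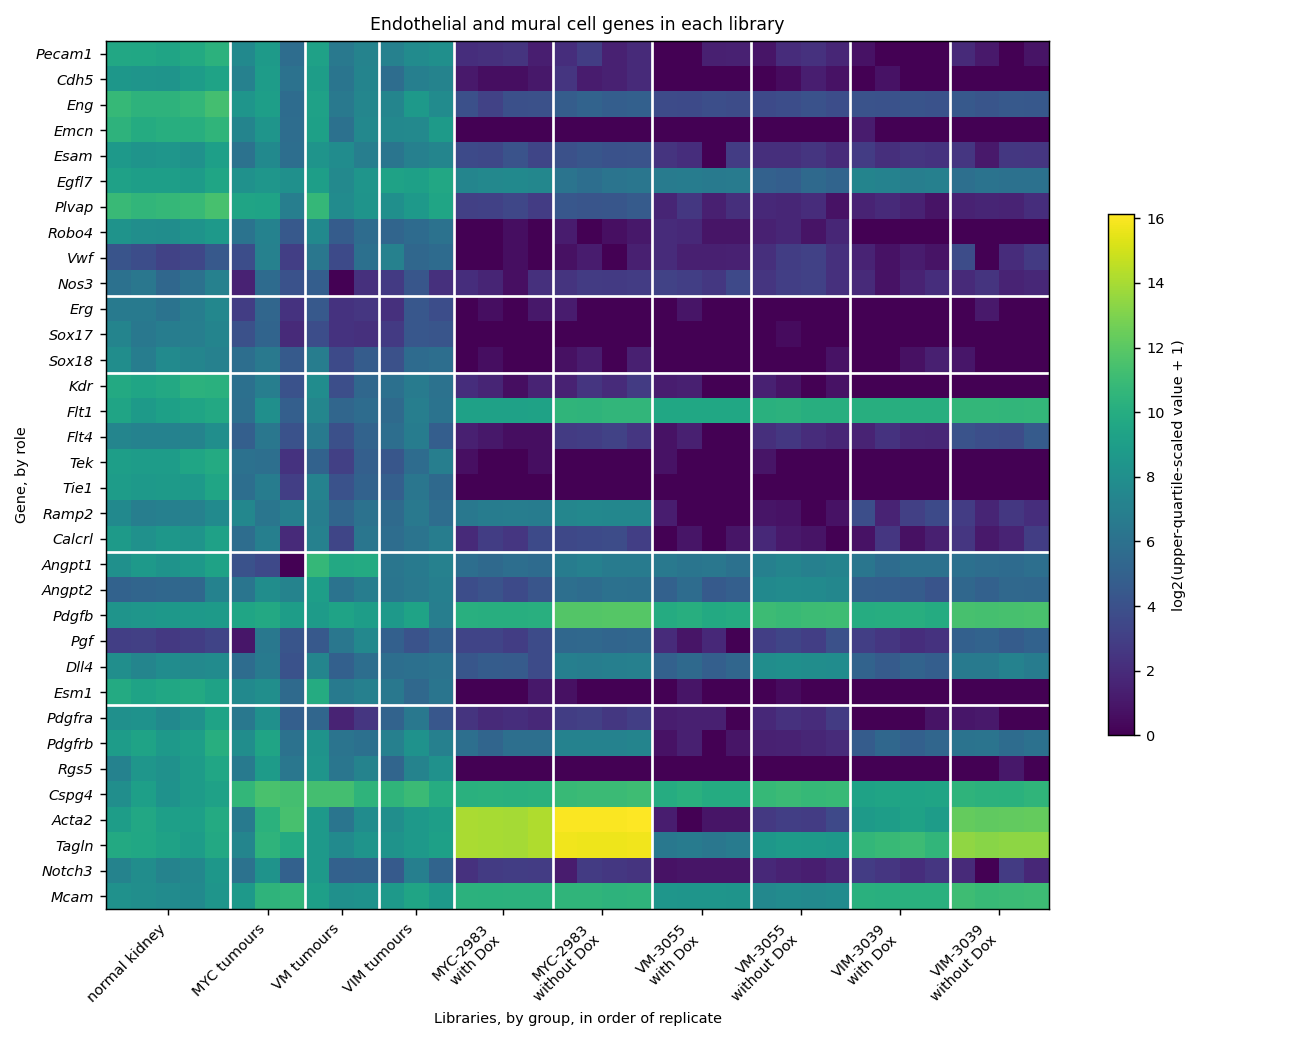
Heat map of log2(value + 1) for the 34 members (rows, grouped by role with white lines) in the 38 libraries (columns, by group in order of replicate). Most endothelial members are brightest in the 5 kidneys, dimmer in the 9 tumours and near 0 in the 24 cell line libraries, whereas Egfl7, Flt1, Pdgfb, Cspg4, Tagln and Mcam are bright in the lines as well.

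Against normal kidney, most endothelial genes were lower in each tumour genotype, and the few members that were higher belonged to the ligands, the mural genes and Vwf. In MYC tumours 21 of 34 members fell and 2 rose (limma fitted on log2(value + 1), with a threshold of 0.05 for the adjusted p and 1 for the log2 change), against 17.7% and 19.4% of all genes tested. In VM tumours 22 fell and 3 rose, against 22.5% and 17.3% of genes. In VIM tumours 24 fell and 3 rose, against 20.7% and 18.9%. The median change of the members was −1.92, −1.87 and −2.09 on the log2 scale in MYC, VM and VIM tumours, where that of all genes tested was 0.12, −0.05 and 0.01. The 3 comparisons share the 5 kidneys and are given side by side, not as repeats of each other. The kidneys also differ from the tumours in carrying no transgene and receiving vehicle in place of Dox, which the design does not separate from the tumour itself. Against the 2 B6 kidneys alone, 18 members fell in MYC, 9 in VM and 20 in VIM tumours. Against the 3 KT kidneys alone the counts were 21, 19 and 25. The share of all genes called in these subsets is not given here, so the counts are not read as a result about the members.

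**Figure D2:**
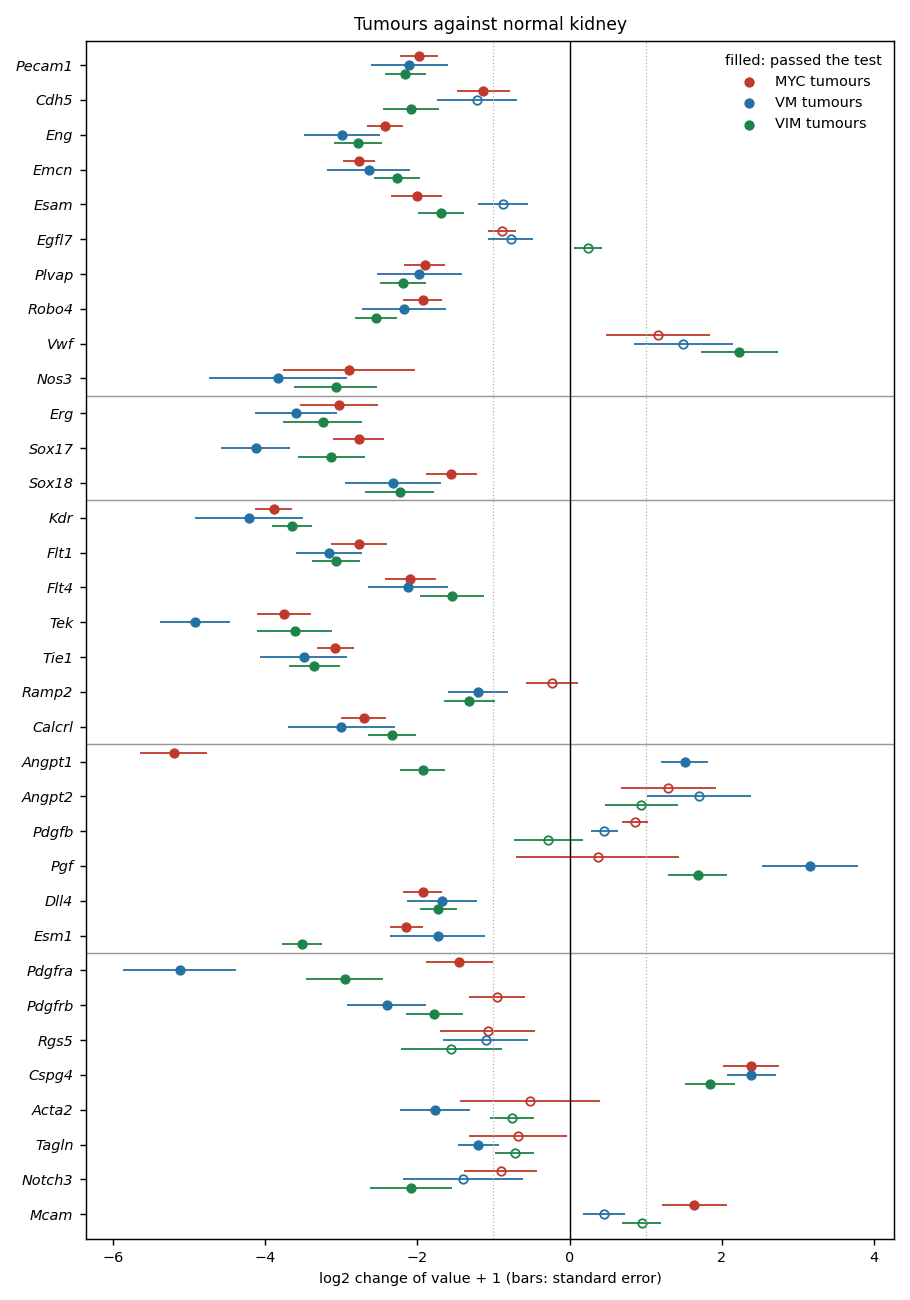
Change of each member against normal kidney (log2 of value + 1; points, fitted change; bars, standard error) in MYC, VM and VIM tumours, with filled points for members past the test. Receptors and transcription factors lie left of −1 in nearly every case, with Ramp2 in MYC tumours as the exception, and Angpt1 lies at −5.21, 1.51 and −1.93.

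The receptors fell in nearly every comparison. All 7 were lower in VM and VIM tumours and 6 of 7 in MYC tumours, with medians of −2.77 (MYC), −3.16 (VM) and −3.07 (VIM) on the log2 scale. Kdr, the main signalling receptor for VEGF-A, measured 888, 704, 858, 1289.9 and 1184 units in normal kidney, 61.6, 117 and 15.5 in MYC tumours, 232, 13.4 and 40.7 in VM tumours and 62.1, 105 and 66.1 in VIM tumours. No tumour reached the lowest kidney, and the change was −3.89 ± 0.25 (adjusted p = 1.61e-05) in MYC, −4.21 ± 0.71 (adjusted p = 0.000674) in VM and −3.65 ± 0.26 (adjusted p = 6.24e-06) in VIM tumours, each with its standard error. Tek, the angiopoietin receptor TIE2, measured 522, 480.3, 489, 710.1 and 929.8 units in normal kidney, 62.5, 57.1 and 4.24 in MYC tumours, 31.96, 7.22 and 28.4 in VM tumours and 18.8, 51.4 and 116 in VIM tumours. Again the highest tumour lay under the lowest kidney, and the changes were −3.76 ± 0.35, −4.92 ± 0.45 and −3.61 ± 0.50 in MYC, VM and VIM tumours (adjusted p = 9.15e-05, 1.58e-05 and 0.000234). Tie1, its partner receptor, measured 486, 422, 435, 401 and 708 units in normal kidney, 55.04, 106 and 7.06 in MYC tumours, 141, 15.5 and 32.1 in VM tumours and 28.2, 77.7 and 44.1 in VIM tumours. Its groups did not overlap either, with changes of −3.08 ± 0.25, −3.50 ± 0.57 and −3.35 ± 0.33.

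Flt1, a high-affinity VEGF receptor with a soluble form that binds VEGF away from Kdr, measured 666, 441, 562, 692 and 839.98 units in normal kidney, 57.8, 258 and 28.2 in MYC tumours, 170.4, 38.1 and 50.6 in VM tumours and 47.1, 120.3 and 69.8 in VIM tumours. It changed by −2.77 ± 0.36, −3.16 ± 0.44 and −3.07 ± 0.32, and all tumours lay under all kidneys although the cell lines expressed it strongly. Flt4, the receptor for VEGF-C that marks lymphatic and fenestrated endothelium, measured 159, 142, 143, 148 and 245 units in normal kidney, 28.9, 81.8 and 15.5 in MYC tumours, 98.5, 14.4 and 34.5 in VM tumours and 56.5, 109 and 27.5 in VIM tumours. Tumours again lay under every kidney, and changes were −2.10 ± 0.33, −2.12 ± 0.53 and −1.54 ± 0.42. Calcrl, the receptor for adrenomedullin, measured 438, 280.3, 367, 326 and 589.5 units in normal kidney, 54.1, 123 and 2.82 in MYC tumours, 136, 9.28 and 80.1 in VM tumours and 52.7, 73.9 and 112 in VIM tumours, and changed by −2.71 ± 0.30, −3.00 ± 0.71 and −2.33 ± 0.32. Its groups did not overlap, unlike those of its partner Ramp2 in MYC and VM tumours. Ramp2 carries the receptor to the cell surface. It measured 201, 118, 129, 134 and 213 units in normal kidney, 172, 80.1 and 121 in MYC tumours, 119.8, 37.1 and 65.4 in VM tumours and 47.1, 91.5 and 53.2 in VIM tumours. It did not pass in MYC tumours (−0.23 ± 0.34, adjusted p = 0.608) and fell in VIM tumours (−1.32 ± 0.33, adjusted p = 0.00773). In VM tumours its change of −1.20 ± 0.40 (adjusted p = 0.0262) missed the threshold without VM tumour 2 (−0.79, adjusted p = 0.0997), VM tumour 3 (0.0626), kidney 1 (0.0599) or kidney 5 (0.0516).

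The 3 endothelial transcription factors fell in every genotype, with median changes of −2.77, −3.59 and −3.13 in MYC, VM and VIM tumours. Erg, an ETS factor that maintains endothelial identity, measured 96.9, 94.9, 69.6, 114 and 175 units in normal kidney, 6.53, 38.6 and 4.24 in MYC tumours, 21.3, 4.12 and 4.93 in VM tumours and 3.77, 20.1 and 12.8 in VIM tumours. Every tumour stood under every kidney, and several stood near the floor of 3 reads, so the changes of −3.03 ± 0.51, −3.59 ± 0.54 and −3.25 ± 0.51 rest on few reads. Sox17, a factor of arterial endothelium, measured 151, 86.1, 112, 119 and 152 units in normal kidney, 14.9, 35.5 and 2.82 in MYC tumours, 13.3, 4.12 and 3.70 in VM tumours and 5.65, 20.1 and 18.4 in VIM tumours. The changes of −2.77 ± 0.34, −4.13 ± 0.45 and −3.13 ± 0.44 again separated all tumours from all kidneys, but MYC tumour 3, VM tumour 3 and VIM tumour 1 lay at or under the floor. Sox18, which acts in vascular and lymphatic development, measured 235, 114, 213, 161 and 133 units in normal kidney, 55.04, 89.5 and 22.6 in MYC tumours, 115, 11.3 and 24.7 in VM tumours and 15.1, 47.6 and 55.1 in VIM tumours. VM tumour 1 lay just above the lowest kidney, and the changes were −1.55 ± 0.34, −2.32 ± 0.63 and −2.24 ± 0.45.

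Among the 10 surface, junction and secreted genes, 8 fell in MYC, 6 in VM and 8 in VIM tumours, and Vwf rose in VIM tumours. Pecam1, an adhesion protein of endothelial junctions, measured 825, 768, 684, 878 and 1307 units in normal kidney, 196, 439.8 and 52.3 in MYC tumours, 598, 91.8 and 148 in VM tumours and 132, 217 and 255 in VIM tumours. It changed by −1.98 ± 0.25, −2.11 ± 0.51 and −2.16 ± 0.27, with no overlap between tumours and kidney. Eng, a co-receptor for TGF-beta family ligands, measured 1746, 1352, 1372, 1601 and 2499.7 units in normal kidney, 336, 520.1 and 50.8 in MYC tumours, 595, 89.7 and 169 in VM tumours and 158, 414 and 215 in VIM tumours and changed by −2.43 ± 0.24, −3.00 ± 0.50 and −2.78 ± 0.31. Emcn, a sialomucin of capillary and venous endothelium, measured 1394, 964, 1102, 1081 and 1502 units in normal kidney, 152, 343 and 53.7 in MYC tumours, 578, 64.9 and 182 in VM tumours and 181, 188 and 439 in VIM tumours. All tumours lay under all kidneys, and the changes were −2.77 ± 0.21, −2.64 ± 0.55 and −2.27 ± 0.30.

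Plvap, which forms the diaphragms of fenestrae, measured 1934, 1562, 1720.2, 1834 and 2794 units in normal kidney, 674, 664 and 120.1 in MYC tumours, 1711, 214 and 321 in VM tumours and 259.9, 405 and 712 in VIM tumours. VM tumour 1 lay inside the kidney range; the changes of −1.91 ± 0.27 and −2.19 ± 0.31 in MYC and VIM tumours passed under every left-out library, but that of −1.97 ± 0.56 in VM tumours did not without VM tumour 2 (−1.38, adjusted p = 0.0613) or VM tumour 3 (−1.67, adjusted p = 0.0605). Robo4, an endothelial guidance receptor, measured 306, 247, 234, 309 and 401 units in normal kidney, 70.9, 144 and 21.2 in MYC tumours, 202, 24.7 and 51.8 in VM tumours and 37.7, 48.9 and 66.1 in VIM tumours. Its changes were −1.93 ± 0.25, −2.18 ± 0.55 and −2.54 ± 0.28, with no tumour inside the kidney range. Nos3, the endothelial nitric oxide synthase, measured 63.7, 81.7, 41.5, 63.5 and 134 units in normal kidney, 1.87, 47.8 and 15.5 in MYC tumours, 26.7, 0 and 3.70 in VM tumours and 5.65, 18.8 and 3.80 in VIM tumours. MYC tumour 2 overlapped kidney, and the change of −2.90 ± 0.86 in MYC tumours lost significance without MYC tumour 3 (−2.61, adjusted p = 0.0524). Without MYC tumour 1 it was −1.15. The changes of Nos3 in VM (−3.84 ± 0.91) and VIM tumours (−3.08 ± 0.55) passed under every left-out library.

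Cdh5, the VE-cadherin of endothelial junctions, measured 372, 337, 331, 489 and 657 units in normal kidney, 136, 474 and 66.4 in MYC tumours, 509.99, 74.2 and 155 in VM tumours and 52.7, 123 and 147 in VIM tumours. It fell in MYC (−1.13 ± 0.35) and VIM tumours (−2.09 ± 0.37) and did not pass in VM tumours (−1.22 ± 0.52, adjusted p = 0.0731). Without MYC tumour 1 the MYC change was −0.64. It was −0.73 (adjusted p = 0.228) without MYC tumour 3, −1.08 (0.054) without kidney 4 and −0.97 (0.0294) without kidney 5, each short of the threshold. Without VM tumour 1 the VM change of Cdh5 passed, at −1.96 (adjusted p = 0.00167). Esam, another junction protein, measured 426, 321, 353, 288 and 550.3 units in normal kidney, 66.2, 204 and 56.5 in MYC tumours, 318, 229 and 118 in VM tumours and 75.3, 128 and 163 in VIM tumours. It fell in MYC (−2.01 ± 0.33) and VIM tumours (−1.69 ± 0.30), and did not pass in VM tumours (−0.88 ± 0.33, adjusted p = 0.0446), where VM tumour 1 lay inside the kidney range and without it the change passed, at −1.19 (adjusted p = 0.0123). Vwf, the clotting factor stored in endothelial granules, moved the other way and measured 17.3, 13.1, 8.03, 9.77 and 21.5 units in normal kidney, 13.1, 134 and 7.06 in MYC tumours, 81.2, 11.3 and 61.7 in VM tumours and 136, 41.4 and 49.6 in VIM tumours. In VIM tumours every library lay above every kidney, with a rise of 2.23 ± 0.50 (adjusted p = 0.00439), whereas MYC (1.17 ± 0.68, adjusted p = 0.185) and VM tumours (1.496 ± 0.65, adjusted p = 0.0756) each held a library inside the kidney range. Without MYC tumour 1 the MYC change of Vwf was 2.34. In VM tumours Vwf passed without VM tumour 2 (2.34, adjusted p = 0.00405), after quantile normalization (2.11, adjusted p = 0.00486) or with limma voom on recovered reads (1.89, adjusted p = 0.0331). Egfl7, a secreted factor of vessel tube formation, did not pass: it ranged from 459 to 696 units in kidney, 275 to 353 in MYC, 188 to 527 in VM and 583 to 797 in VIM tumours, with changes of −0.89 ± 0.18, −0.77 ± 0.30 and 0.24 ± 0.18. It passed in MYC tumours after TMM (−1.02) or quantile (−1.05) rescaling and in VM tumours without VM tumour 1 (−1.12).

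**Figure D3:**
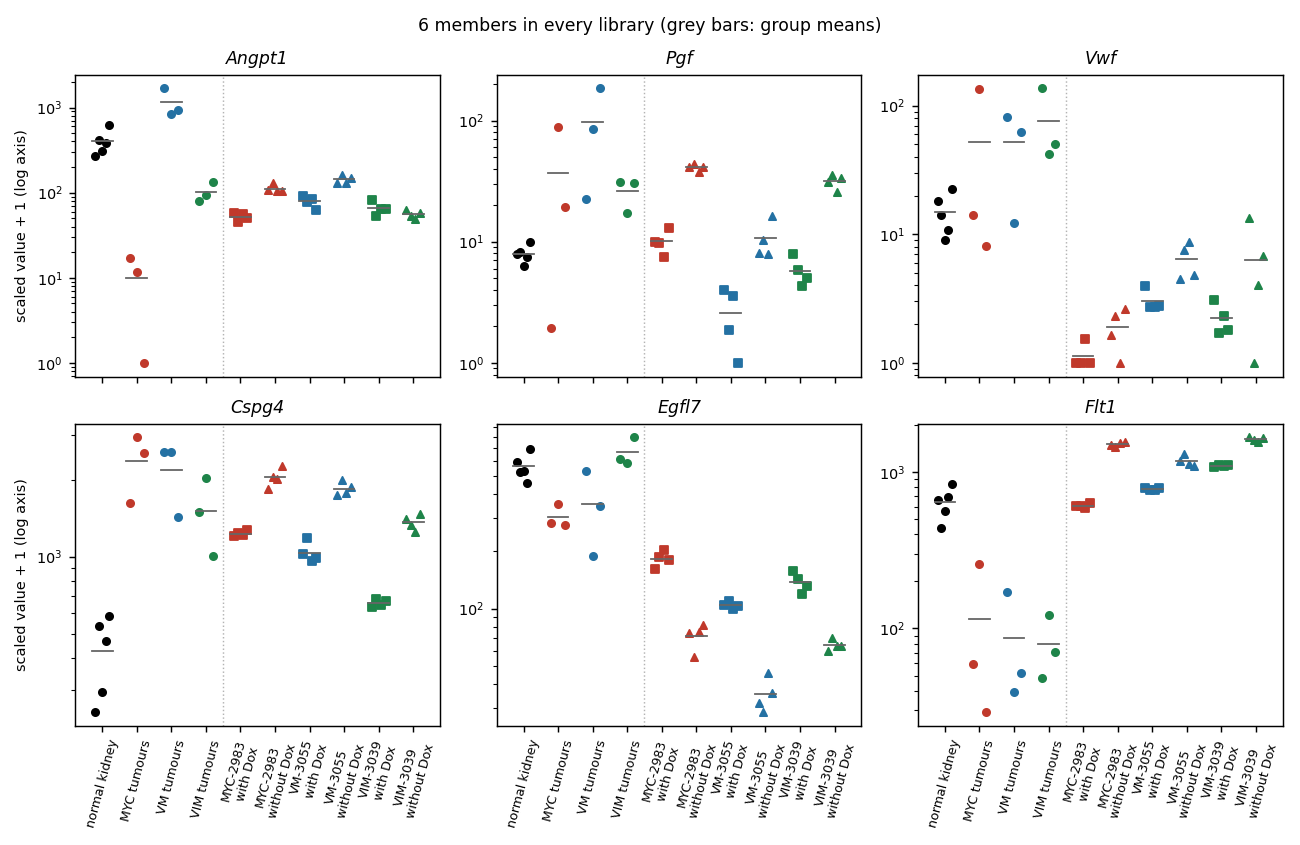
Angpt1, Pgf, Vwf, Cspg4, Egfl7 and Flt1 in each of the 38 libraries (vertical log axis, scaled value + 1; points, libraries; grey bars, group means; the dotted line separates tissue from cell lines). Angpt1 is highest in the 3 VM tumours (834 to 1686 units) and lowest in the 3 MYC tumours (0 to 15.9), and Flt1 is higher in all 24 line libraries than in any tumour.

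The ligands split by gene and by genotype. Angpt1 (chr15:42256273-42508523, minus strand, NCBIM37), which activates TEK and is made mainly by mural and mesenchymal cells, measured 266, 413, 311, 386 and 619.7 units in normal kidney, 15.9, 10.8 and 0 in MYC tumours, 1686, 834 and 928 in VM tumours and 79.1, 94.0 and 132 in VIM tumours. Each tumour genotype lay wholly outside the kidney range: it fell in MYC tumours, at −5.21 ± 0.44 (adjusted p = 6.16e-05), fell in VIM tumours, at −1.93 ± 0.30 (adjusted p = 0.000507), and rose in VM tumours, at 1.51 ± 0.31 (adjusted p = 0.00208). All 3 changes passed under each alternative tried. Pgf, placental growth factor, which binds FLT1, measured 6.92, 7.30, 5.35, 6.51 and 8.86 units in normal kidney, 0.933, 88.0 and 18.4 in MYC tumours, 21.3, 84.5 and 184 in VM tumours and 30.1, 16.3 and 29.4 in VIM tumours. All VM and VIM libraries lay above all kidneys, with rises of 3.16 ± 0.63 (adjusted p = 0.00191) and 1.68 ± 0.39 (adjusted p = 0.00523). The kidney values lay near the floor of 3 reads, so these rises rest on few reads in kidney. MYC tumours ran from under the floor to 88.0 units (0.37 ± 1.07, adjusted p = 0.797). The MYC change was −2.03 without the mouse of MYC tumours 2 and 3, against 2.78 without MYC tumour 1.

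Dll4, the NOTCH ligand of tip cells and arteries, measured 252, 159, 227, 193 and 222 units in normal kidney, 51.3, 97.2 and 15.5 in MYC tumours, 158, 29.9 and 55.5 in VM tumours and 56.5, 61.4 and 69.8 in VIM tumours. It fell, at −1.93 ± 0.25, −1.68 ± 0.46 and −1.72 ± 0.24 in MYC, VM and VIM tumours, with no tumour above the lowest kidney. Esm1, a proteoglycan secreted by tip cells, measured 927, 647, 776, 888 and 615 units in normal kidney, 199.6, 247 and 46.6 in MYC tumours, 960.1, 94.8 and 129 in VM tumours and 84.7, 42.6 and 77.1 in VIM tumours. It fell in MYC (−2.14 ± 0.22) and VIM tumours (−3.52 ± 0.26) without overlap, but VM tumour 1 exceeded every kidney and the VM change of −1.73 ± 0.62 (adjusted p = 0.0382) missed the threshold without VM tumour 2 (0.172), VM tumour 3 (0.152) or any kidney (0.0512 to 0.0726). Angpt2, which antagonises ANGPT1 at TEK in remodelling vessels, did not pass: it ranged from 32.9 to 138 units in kidney, 75.6 to 241 in MYC, 69.1 to 525 in VM and 77.2 to 121 in VIM tumours, and its changes were 1.29 ± 0.62, 1.70 ± 0.68 and 0.94 ± 0.48 (adjusted p = 0.116, 0.0585 and 0.129). Without kidney 5 it passed in MYC (1.67, adjusted p = 0.0132), VM (2.07, adjusted p = 0.0202) and VIM tumours (1.31, adjusted p = 0.00697). With limma voom on recovered reads it passed in all 3 as well (1.63, 2.08 and 1.24). Angpt2 in VM tumours also passed without VM tumour 2 (2.30), after TMM (1.68) or quantile (1.99) rescaling and with all tissue in 1 fit (1.70), and in MYC tumours with the libraries of mouse 2983 kept separate (1.49). Pdgfb ranged from 324 to 447 units in kidney, 496 to 855 in MYC, 454 to 647 in VM and 117 to 650.4 in VIM tumours, and its changes of 0.86 ± 0.17, 0.46 ± 0.18 and −0.28 ± 0.46 were under the size threshold, although in MYC tumours Pdgfb passed without MYC tumour 3 (1.03) or with limma voom (1.31).

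Of the 8 mural genes, 1 fell in MYC, 4 in VM and 3 in VIM tumours, against 17.7%, 22.5% and 20.7% of all genes tested. Rises numbered 2, 1 and 1, against 19.4%, 17.3% and 18.9% of genes. The rises, and the fall in MYC tumours, were near those shares and are not read as a trait of the group. Cspg4 (chr9:56712911-56747677, plus strand, NCBIM37), which encodes NG2 of pericytes and of several tumour cell types, measured 246, 536, 295, 465.8 and 586 units in normal kidney, 1623, 2932 and 2539.6 in MYC tumours, 2577, 2561 and 1430.3 in VM tumours and 1501, 2025 and 1008 in VIM tumours. Every tumour exceeded every kidney, and the rises were 2.38 ± 0.37 (adjusted p = 0.00109), 2.39 ± 0.32 (adjusted p = 0.000174) and 1.85 ± 0.33 (adjusted p = 0.00118). Mcam, an adhesion protein of mural and endothelial cells, measured 280.3, 251, 216, 202 and 344 units in normal kidney, 429, 1409 and 1529.7 in MYC tumours, 545, 268 and 291 in VM tumours and 427, 685 and 402 in VIM tumours. It rose in MYC tumours, at 1.64 ± 0.43 (adjusted p = 0.0127), and did not pass in VM (0.46 ± 0.28, adjusted p = 0.186) or VIM tumours (0.95 ± 0.25, adjusted p = 0.0102), where it passed without VIM tumour 1 (1.05) or 3 (1.09), without kidney 5 (1.06) or with limma voom (1.26). Without the mouse of MYC tumours 2 and 3 the MYC change was 0.75. Both genes were also expressed in every library of the tumour cell lines.

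Pdgfra, the PDGF receptor of mesenchymal cells, measured 273, 293, 197, 283 and 663 units in normal kidney, 85.8, 273 and 28.2 in MYC tumours, 38.6, 2.06 and 4.93 in VM tumours and 33.9, 87.7 and 20.2 in VIM tumours. It fell in VM (−5.13 ± 0.75) and VIM tumours (−2.96 ± 0.50) without overlap, with VM tumour 2 under the floor. The MYC change of −1.45 ± 0.44 lost significance without MYC tumour 3 (adjusted p = 0.146) and was −1.05 without MYC tumour 1. Pdgfrb, the receptor through which PDGF-B recruits pericytes, measured 489.6, 639, 400.3, 513 and 1079 units in normal kidney, 242, 687 and 67.8 in MYC tumours, 306, 71.1 and 60.4 in VM tumours and 126, 299 and 130.3 in VIM tumours. It fell in VM (−2.41 ± 0.51) and VIM tumours (−1.78 ± 0.38), all under the lowest kidney, and did not pass in MYC tumours (−0.96 ± 0.37, adjusted p = 0.0575). In MYC tumours Pdgfrb passed without MYC tumour 2 (−2.19, adjusted p = 0.00747), without kidney 3 (−1.09), after TMM (−1.12) or quantile (−1.12) rescaling and against the KT kidneys alone (−1.23). Notch3, the NOTCH receptor of smooth muscle, measured 145, 234, 149, 172 and 374 units in normal kidney, 65.3, 316 and 31.1 in MYC tumours, 426, 30.9 and 31.8 in VM tumours and 22.6, 125 and 34.9 in VIM tumours, and fell in VIM tumours (−2.09 ± 0.54, adjusted p = 0.00899). VM tumour 1 exceeded every kidney for Notch3, and the VM change was −1.40 ± 0.78 (adjusted p = 0.158), or −2.64 (adjusted p = 0.000527) without that library. In MYC tumours Notch3 changed by −0.91 ± 0.48 (adjusted p = 0.145), and passed without MYC tumour 2 (−2.13, adjusted p = 0.00456). Without the mouse of MYC tumours 2 and 3 its change was −1.61.

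Acta2, smooth muscle actin, measured 502, 818, 554, 559 and 921 units in normal kidney, 101, 1265 and 2788 in MYC tumours, 410.1, 75.3 and 223 in VM tumours and 254, 422 and 534 in VIM tumours. It fell in VM tumours (−1.77 ± 0.46, adjusted p = 0.00896), and was −0.75 ± 0.29 in VIM tumours (adjusted p = 0.051). In MYC tumours Acta2 ran from far under to far above the kidneys (−0.52 ± 0.92). The MYC change was 1.64 without MYC tumour 1 and −2.68 without the mouse of MYC tumours 2 and 3, each with a single MYC mouse. Tagln, another contractile protein of smooth muscle, measured 882, 761, 610.4, 482 and 848 units in normal kidney, 159, 1441 and 942 in MYC tumours, 425, 207 and 317 in VM tumours and 315, 429.8 and 562 in VIM tumours. It fell by 1.20 ± 0.27 in VM tumours, which became −0.93 (adjusted p = 0.0165) without VM tumour 2, and changed by −0.68 ± 0.64 in MYC and −0.72 ± 0.26 in VIM tumours. Without the mouse of MYC tumours 2 and 3 the MYC change of Tagln was −2.13. Rgs5, a pericyte regulator of G-protein signalling, did not pass: it ranged from 138 to 732 units in kidney, 83.3 to 461 in MYC, 80.4 to 337 in VM and 37.7 to 283 in VIM tumours, with changes of −1.08 ± 0.62, −1.10 ± 0.56 and −1.55 ± 0.66 (adjusted p = 0.179, 0.121 and 0.0738). It passed as lower in MYC tumours without MYC tumour 2 (−1.93, adjusted p = 0.0172). It did so in VM tumours without VM tumour 1 (−1.64, adjusted p = 0.034), without kidney 1 (−1.43) or against the KT kidneys alone (−1.62). It did so in VIM tumours without VIM tumour 3 (−2.19, adjusted p = 0.0231), without kidney 1 (−1.88) or against the KT kidneys alone (−2.07).

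Genes outside the 34 gave the setting of these changes, with counts to be set against the shares of all genes given above. Of 16 pan-endothelial genes used as an index (none a member), 12 fell in MYC, 13 in VM and 13 in VIM tumours, with medians of −2.31, −2.71 and −2.39. Arhgef15 (−3.09 ± 0.29) and Icam2 (−2.64 ± 0.27) fell most in MYC tumours, and Ptprb, the phosphatase that restrains TEK, fell most in VM (−3.97 ± 0.67) and VIM tumours (−3.11 ± 0.34). The smallest falls that passed were those of Cd34 (−1.33 ± 0.22 in MYC tumours) and of Cd93 (−1.58 ± 0.42 in VM and −1.05 ± 0.30 in VIM tumours), and Tal1, a transcription factor shared by blood and endothelium, rose in VM tumours (1.34 ± 0.35, adjusted p = 0.00855). Of 16 pericyte, smooth muscle and mesangial genes that are not members, 7, 9 and 9 fell, and 1, 2 and 0 rose. Gata3 was at −4.83 ± 0.50, −7.62 ± 0.38 and −4.87 ± 0.92, and the mesangial integrin Itga8 at −5.30 ± 0.74 in VM and −4.29 ± 0.58 in VIM tumours. Gata3 was also above the floor in at least some libraries of MYC-2983 and VIM-3039 cells, so its fall is not read as one of mural cells alone. Myh11, the smooth muscle myosin, was at −3.37 ± 0.63 in MYC tumours, and Actg2, an enteric smooth muscle actin, rose in MYC (3.53 ± 1.17) and VM tumours (2.63 ± 0.80).

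Markers of other cell types moved in the same samples. The 5 podocyte genes summed to 841 to 3653 units in tumours against 3330.4 to 9145 in kidney, 3 of 5 fell in each genotype, and Nphs1, a defining gene of podocytes, was listed at 0 in all 3 VM tumours. With Dox the same genes summed to 3801 to 3994 units in MYC-2983, 4258 to 4519 in VM-3055 and 1883 to 1947 in VIM-3039, with Nphs1 at 0. Their sum is therefore not read as a measure of podocytes. Of the 10 tubule genes 8 fell and 1, Pax8, rose in each comparison. The 12 leukocyte genes summed to 1060.2 to 2229 units in kidney, 1723 to 4920 in MYC, 1038 to 2470 in VM and 1577 to 3149 in VIM tumours. In MYC, VM and VIM tumours 3, 2 and 3 of them rose and 0, 6 and 4 fell. Cd68, of macrophages, rose in all 3 comparisons (3.93 ± 0.35, 3.70 ± 0.33 and 4.82 ± 0.35). It was also above the floor in at least some libraries of each cell line, so its rise is not read as one of macrophages alone. The 10 fibroblast genes summed to 981 to 3646 units in kidney, 1124 to 12991 in MYC, 699 to 6901 in VM and 1043 to 2768 in VIM tumours, 2, 1 and 2 of them rose and 0, 2 and 1 fell, with Postn higher in each (4.51 ± 0.81, 5.52 ± 1.21 and 3.95 ± 0.55). The part of these cell types in the values of the members was not tested.

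Signals that act on vessels were counted from 2 further lists. Of 20 genes for VEGF, angiopoietin and hypoxia signals (19 tested, with Ptprb also in the index), 8, 7 and 8 fell and 0, 2 and 2 rose in MYC, VM and VIM tumours. Cxcl12, a chemokine for vessel and blood cells, fell, at −3.87 ± 0.30, −5.95 ± 0.44 and −4.62 ± 0.62. Vegfa, the main ligand of Kdr, stood at 3972 to 4626 units in kidney, 765 to 3057 in MYC, 2239.7 to 2680.4 in VM and 1594 to 2858 in VIM tumours. It fell in MYC (−1.58 ± 0.38) and VIM tumours (−1.05 ± 0.19), and did not pass in VM tumours (−0.74 ± 0.12, adjusted p = 0.000568). Epas1, which encodes HIF-2 alpha and is strong in endothelium, fell by 2.84 ± 0.30 in MYC tumours. The vessel peptides Apln (1.49 ± 0.39) and Adm (1.08 ± 0.28) rose in VM tumours, and Cxcr4 (1.08 ± 0.27) and Nrp2 (1.22 ± 0.40) rose in VIM tumours. Of 20 NOTCH, ephrin and PDGF partners, 8, 9 and 9 fell and 1, 4 and 2 rose. Heyl, a NOTCH target of mural cells, rose in each comparison (3.51 ± 0.49, 3.07 ± 0.52 and 1.95 ± 0.40), and Pdgfd, a ligand of PDGFRB, fell in VM (−6.84 ± 0.58) and VIM tumours (−4.37 ± 0.49). Of 13 genes of kidney endothelial subtypes, 6, 6 and 5 fell and 1, 0 and 0 rose. Aqp1, which proximal tubule also expresses, was at −5.33 ± 0.32, −7.52 ± 0.38 and −5.01 ± 0.39, and Vcam1, an adhesion protein for leukocytes, rose in MYC tumours (4.01 ± 0.70).

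To see which members departed from the mean of other endothelial genes, each library was also read relative to its mean log2 level over the 16 index genes. Not all of these are confined to endothelium, since Gpr116 and Rasip1 were above the floor in every line library. Index genes also moved unequally, with Ptprb among the largest falls and Tal1 higher in VM tumours. A fall beyond their mean therefore does not set a member apart from all endothelial genes. That index was 7.77 ± 0.30 in kidney (SD, n = 5 libraries), 5.64 ± 1.12 in MYC, 5.46 ± 1.34 in VM and 5.78 ± 0.43 in VIM tumours (SD, n = 3 libraries each). MYC tumours 2 and 3 come from the same mouse, so the MYC SD mixes spread within and between mice. Relative to it, 5 members fell in MYC tumours, 5 in VM and 7 in VIM tumours, against 4.91%, 5.56% and 5.53% of genes. Kdr fell beyond the index in MYC, VM and VIM tumours, at −2.03 ± 0.29, −1.90 ± 0.63 and −1.66 ± 0.34, and so did Tek, at −1.90 ± 0.34, −2.62 ± 0.63 and −1.62 ± 0.39. Tie1 and Erg did so in MYC and VIM tumours, Sox17 in VM and VIM tumours, Flt1 and Esm1 in VIM tumours, Nos3 and Pdgfra in VM tumours and Angpt1 in MYC tumours (−3.34 ± 0.44). Kdr, Tek, Tie1, Angpt1, Esm1 and Pdgfra kept these calls whichever library was left out. Erg lost its call without MYC tumour 1 (−0.44) or 3 (−1.09) and without VIM tumour 1 (−0.88), Sox17 without VM tumour 3 (adjusted p = 0.0511) or VIM tumour 1 (−0.85), Nos3 without VM tumour 2 (−0.9985) or 3 (adjusted p = 0.0668) and Flt1 without VIM tumour 3 (−0.86), and for Erg, Sox17 and Nos3 leaving out single kidneys also ended it. In VM tumours Tie1 also passed without VM tumour 1 (−1.36) or 2 (−1.14). Erg did so without VM tumour 1 (−1.26) or 2 (−1.54). Without MYC tumour 2, Sox17 (−1.34), Flt1 (−1.28) and Calcrl (−2.11) passed in MYC tumours. Without VIM tumour 2, Nos3 (−1.64), Pdgfra (−1.49) and Eng (−1.13) did so in VIM tumours. Of the junction genes, Pecam1 did not pass, at −0.12 ± 0.25, 0.20 ± 0.63 and −0.17 ± 0.28 in MYC, VM and VIM tumours. Esam was higher than the index in VM tumours (1.43 ± 0.64, adjusted p = 0.0368) and did not pass in MYC (−0.15 ± 0.32) or VIM tumours (0.30 ± 0.31). Esam lost the VM call without VM tumour 2 (0.71, adjusted p = 0.158) or any kidney (adjusted p = 0.0593 to 0.09). Cdh5 did not pass, at 0.73 ± 0.32, 1.09 ± 0.63 and −0.10 ± 0.33, but did so in VM tumours without VM tumour 1 (1.04) or 2 (1.09). Its MYC change was 1.16 without MYC tumour 1.

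Relative to the index, 7, 9 and 9 members rose in MYC, VM and VIM tumours, but 72.4%, 71.2% and 72.9% of all genes did, so that a rise on this scale says little about a member. Cspg4 rose by 4.25 ± 0.37, 4.70 ± 0.65 and 3.84 ± 0.40 on this scale in MYC, VM and VIM tumours, and Vwf by 3.03 ± 0.61, 3.80 ± 0.68 and 4.22 ± 0.57. Pgf rose by 5.47 ± 0.74 in VM tumours. The spread of the index itself enters every value, and the standard errors in VM tumours were 0.63 to 0.74 for members that passed.

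**Figure D4:**
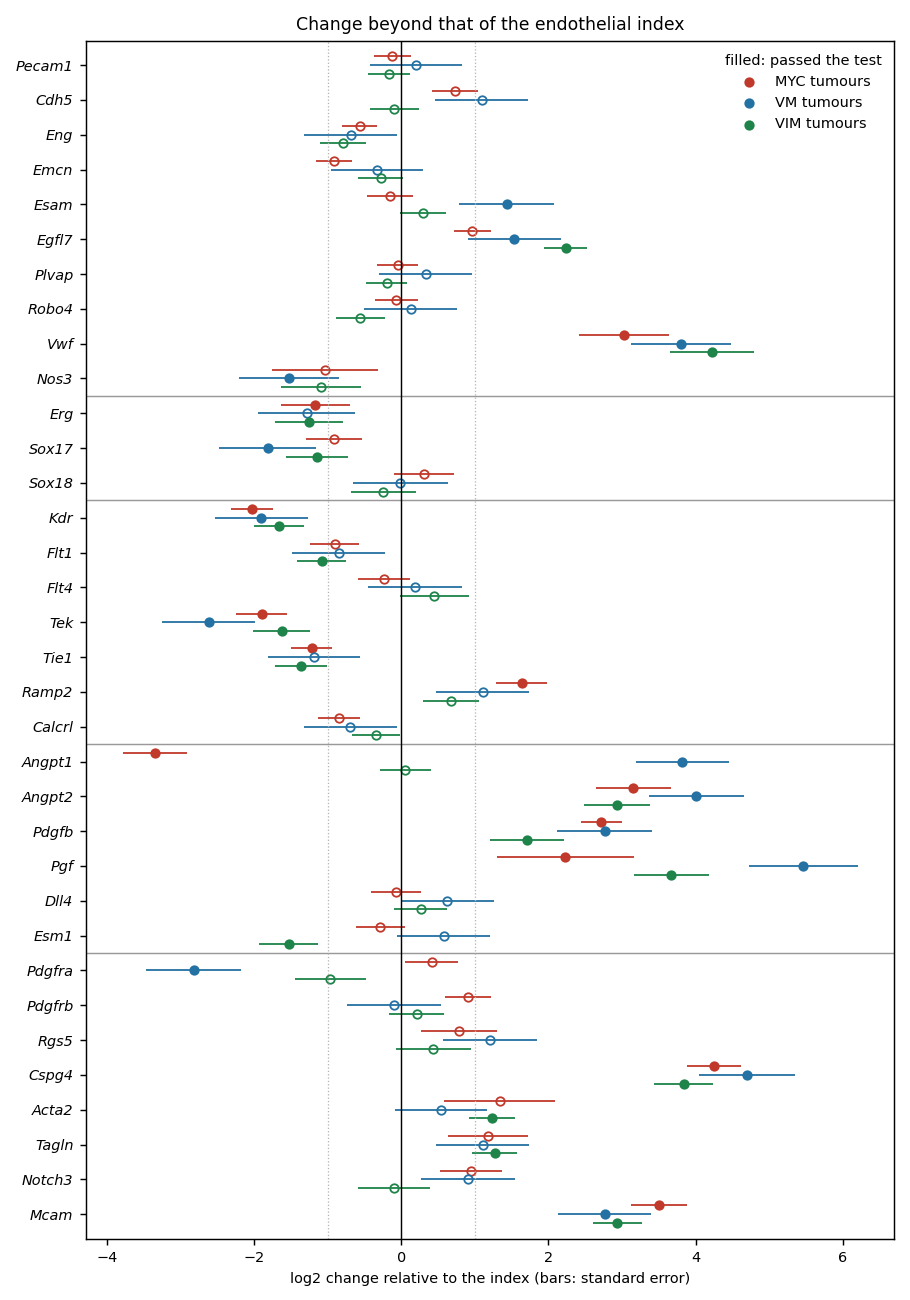
Change of each member against normal kidney after the mean log2 level of 16 other endothelial genes was subtracted from each library (points, fitted change; bars, standard error; filled, past the test). Kdr and Tek lie left of −1 in all 3 genotypes, and Angpt1 lies at −3.34 in MYC and 3.82 in VM tumours.

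Between tumour genotypes, Angpt1 was the only member to pass, and only between VIM and VM tumours. VIM tumours were lower than VM tumours, at −3.45 ± 0.38 (adjusted p = 0.0242) on the log2 scale, against 0.0746% of genes lower and 0.174% higher in that comparison. Of all genes called there 70% were higher in VIM tumours, and 58.1% after quantile normalization. The 3 VIM libraries (79.1 to 132 units) and the 3 VM libraries (834 to 1686 units) did not overlap, yet the call was lost with no filter on low values (adjusted p = 0.144), without VIM tumour 1 (adjusted p = 0.146) or 2 (0.108) and without any VM tumour (0.0552, 0.0808 and 0.0891), at changes of −3.13 to −3.64. Against MYC tumours no member passed in VM tumours (0 of 16085 genes, 0% higher and 0% lower) or in VIM tumours (1 of 16246 genes, 0.00616% higher and 0% lower). At an unadjusted p under 0.05, limma gave 2 members and 2212 genes for VM against MYC and 3 members and 2379 genes for VIM against MYC, and limma voom on recovered reads called 0 members in both. Among members, Angpt1 had the largest difference there, at 6.72 ± 0.58 (adjusted p = 0.0847) for VM and 3.27 ± 0.72 (adjusted p = 0.217) for VIM tumours. The VM against MYC difference in Angpt1 was 7.42 without MYC tumour 1 and 6.02 without the mouse of MYC tumours 2 and 3. It passed with that mouse's libraries kept separate (7.55, adjusted p = 0.0499) and with all tissue in 1 fit (6.72, adjusted p = 4.84e-05), as did the VIM against MYC difference in that fit (3.27, adjusted p = 0.00615). With 2 MYC units and 3 of each other genotype, differences such as that of Egfl7 between VIM and MYC tumours (1.14 ± 0.30, adjusted p = 0.25) were not separated from the spread.

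The cell lines showed which members are expressed in culture by lines grown from tumours. The paper compared VM-3055 and VIM-3039 with fibroblasts, but whether MYC-2983 holds stromal cells was not tested. Of the 34, 10 were above the floor of 3 reads in all 24 line libraries, namely Eng, Egfl7, Flt1, Angpt1, Angpt2, Pdgfb, Dll4, Cspg4, Tagln and Mcam. These members were therefore not confined to endothelial or mural cells, but being above the floor says little about level. Eng measured 8.16 to 33.6 units in the lines, against 50.8 to 595 in tumours and 1352 to 2500 in kidney. Flt1 measured 584 to 1665 units in the lines. Another 8 were at or under the floor in all 24 (Emcn, Erg, Sox17, Sox18, Tek, Tie1, Esm1 and Rgs5), and the other 16 lay between. With Dox, 19 members were above the floor in every MYC-2983 library, 11 in every VM-3055 and 15 in every VIM-3039 library. MYC-2983 expressed the contractile genes strongly, with Acta2 at 17135, 16828, 15668 and 18453 units and Tagln at 17235, 16596, 15509 and 18952 units with Dox. VM-3055 with Dox had Acta2 at 1.48, 0, 0.849 and 0.877 units, at or under the floor. The index genes Cldn5 and Myct1 were listed at 0 in every line library, but Gpr116 and Rasip1 were above the floor in all 24, and Cd34, shared by endothelium and fibroblasts, averaged 3882 units in MYC-2983 with Dox, 2.13 in VM-3055 and 3.72 in VIM-3039. The 10 fibroblast genes summed to 8959 to 9904 units in MYC-2983 with Dox, against 94.2 to 121 in VM-3055 and 54.1 to 72.8 in VIM-3039. MYC-2983 is therefore not a reference without fibroblast or contractile genes, and is not read as one free of mural cells.

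Against these lines with Dox, tumours were higher for most endothelial members. MYC tumours were higher for 23 and lower for 4 members (27% and 11.4% of genes), VM tumours for 28 and 1 (28.4% and 12.3%) and VIM tumours for 28 and 4 (32.6% and 13.3%). The balance of all calls moved with the scaling: 70.3%, 69.7% and 71% of called genes were higher in MYC, VM and VIM tumours on the authors' scale, 61.6%, 60.5% and 64.1% after TMM rescaling and 48.9%, 47.7% and 46.4% after quantile normalization, where members were 22 higher and 4 lower, 26 and 3, and 22 and 4. For members at or under the floor in a line, the fold is a lower bound against the mean floor of that line. Emcn was at least 112-fold higher in MYC, 111-fold in VM and 126-fold in VIM tumours than in their lines. Rgs5, at or under the floor in all 24 line libraries, was at least 131-fold, 75.6-fold and 72.4-fold higher, and Tie1 at least 34.5-fold, 25.3-fold and 23.4-fold. Emcn and Tie1 in tumours thus lay between their lines and kidney.

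Flt1 was lower in tumours than in their lines in all 3 pairs. With Dox the MYC-2983 libraries measured 607, 608, 584 and 631 units, those of VM-3055 measured 788, 769, 761 and 789 and those of VIM-3039 measured 1081, 1108, 1087 and 1112. The tumours, at 28.2 to 258 units, were lower, at −2.72 ± 0.33, −3.47 ± 0.44 and −3.88 ± 0.28 on the log2 scale (adjusted p = 0.000605, 0.000262 and 1.32e-05). Pdgfb was lower in VIM tumours than in VIM-3039 (−1.71 ± 0.50, or −0.999 without VIM tumour 3) and passed as lower in VM tumours without VM tumour 2 (−1.03) or after TMM (−1.12) or quantile (−1.08) rescaling. Lower in tumours too were Tagln in MYC (−5.29 ± 0.72) and VIM tumours (−2.07 ± 0.20), Acta2 and Angpt1 in MYC tumours (−5.23 ± 1.07 and −2.32 ± 0.41) and Mcam in VIM tumours (−1.28 ± 0.19). Whether stromal cells add to Tagln and Acta2 in MYC-2983 was not tested. Angpt1 went the other way in VM tumours, at 3.80 ± 0.26 above VM-3055 cells (89.4, 77.4, 84.0 and 62.3 units), and was not separated from the line in VIM tumours (0.63 ± 0.26, adjusted p = 0.063). Vegfa in the lines with Dox averaged 662 units (MYC-2983), 2594 (VM-3055) and 2260.4 (VIM-3039).

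With Dox, more members fell than rose in each line. Of 27 members tested in MYC-2983, 13 fell and 1 rose (15% and 4.49% of genes). Of 25 in VM-3055, 9 fell and 1 rose (18.9% and 5.92%), and of 22 in VIM-3039, 7 fell and 1 rose (16.6% and 7.67%). The 3 lines share no library, and 6 members fell in each: Flt4, Pdgfb, Pgf, Dll4, Acta2 and Tagln. The share of all genes that fell or rose in all 3 lines is not given here, so this overlap is not read as particular to the members. Egfl7 rose in each, at 1.36 ± 0.11 in MYC-2983, 1.57 ± 0.15 in VM-3055 and 1.10 ± 0.12 in VIM-3039. It measured 160.4, 185, 203 and 178 units with and 73.5, 54.6, 74.1 and 80.5 without Dox in MYC-2983, 103, 108, 98.5 and 103 and 30.9, 27.5, 44.96 and 34.9 in VM-3055, and 157, 142, 119 and 131 and 58.8, 69.1, 62.2 and 62.2 in VIM-3039, with no overlap in any line. Egfl7 (chr2:26435534-26448640, plus strand, NCBIM37) overlaps Agpat2 and Mir126, as Nos3 does Atg9b, Angpt2 does Mcph1, Tagln does Pcsk7, Eng does Ak1 and Fpgs, and Ramp2 does Vps25. Strand use in the counting is not given in the sources used here, so reads of overlapping genes cannot be told apart.

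Pdgfb measured 1151, 1102, 1105 and 1164 units with and 3549, 3654, 3734 and 3727 without Dox in MYC-2983, 946, 1101, 882 and 962 and 2079, 1974, 2094 and 2198 in VM-3055, and 1015, 1047, 1081 and 986 and 2726, 2684, 2748 and 2927 in VIM-3039. It fell with Dox, at −1.70 ± 0.03, −1.10 ± 0.06 and −1.42 ± 0.04 (adjusted p = 1.56e-18, 1.03e-11 and 1.09e-18), so that this endothelial and platelet ligand was higher without Dox in every library. Dll4 fell, at −2.60 ± 0.17, −2.72 ± 0.13 and −1.90 ± 0.16, from 123, 110.5, 123 and 128 to 18.9, 24.5, 23.8 and 12.1 units in MYC-2983. Acta2 fell, at −1.998 ± 0.04, −2.23 ± 0.36 and −3.28 ± 0.07, and Tagln, the other contractile gene, at −1.69 ± 0.05, −2.13 ± 0.10 and −2.57 ± 0.06. In VIM-3039, Acta2 measured 5148, 4609.8, 4858 and 5094 units without and 441, 510.2, 615 and 473 with Dox. Pgf fell, at −2.06 ± 0.19, −2.17 ± 0.42 and −2.47 ± 0.26 and Flt4 at −1.94 ± 0.29, −1.57 ± 0.41 and −2.17 ± 0.31, both near the floor with Dox, as was Acta2 in VM-3055. Among members that fell in fewer lines, Angpt2 did so in MYC-2983 (−1.92 ± 0.17) and VM-3055 (−2.60 ± 0.18), and Plvap (−1.27 ± 0.20), Angpt1 (−1.10 ± 0.11) and Pdgfrb (−1.46 ± 0.13) in MYC-2983. Eng and Nos3 fell there too, but Eng was at −0.92 without library 2 with Dox, and Nos3 at −0.70 without library 3 with Dox and −0.98 without library 4 without Dox. Cspg4 fell in VIM-3039 (−1.04 ± 0.05). In VM-3055, Vwf and Pdgfra passed with changes of −1.05 ± 0.33 and −1.21 ± 0.40, near the floor, and Vwf lost the call without library 2 (−0.998) or 3 (−0.997) with Dox or library 2 (−0.95) or 3 (−0.88) without it, and Pdgfra without library 4 with (−0.86) or without Dox (adjusted p = 0.0531). Flt1 fell by 1.30 ± 0.03 in MYC-2983, and the changes of −0.59 ± 0.05 (VM-3055) and −0.56 ± 0.03 (VIM-3039) did not reach the size threshold. After TMM rescaling 10, 7 and 6 members fell and 1 rose in each line, and after quantile normalization 9, 7 and 7 fell and 1, 3 and 3 rose, while the share of called genes that were higher moved from 23%, 23.8% and 31.6% to 32.5%, 40.6% and 43.5% (TMM) and 42%, 48.4% and 49.3% (quantile).

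**Figure D5:**
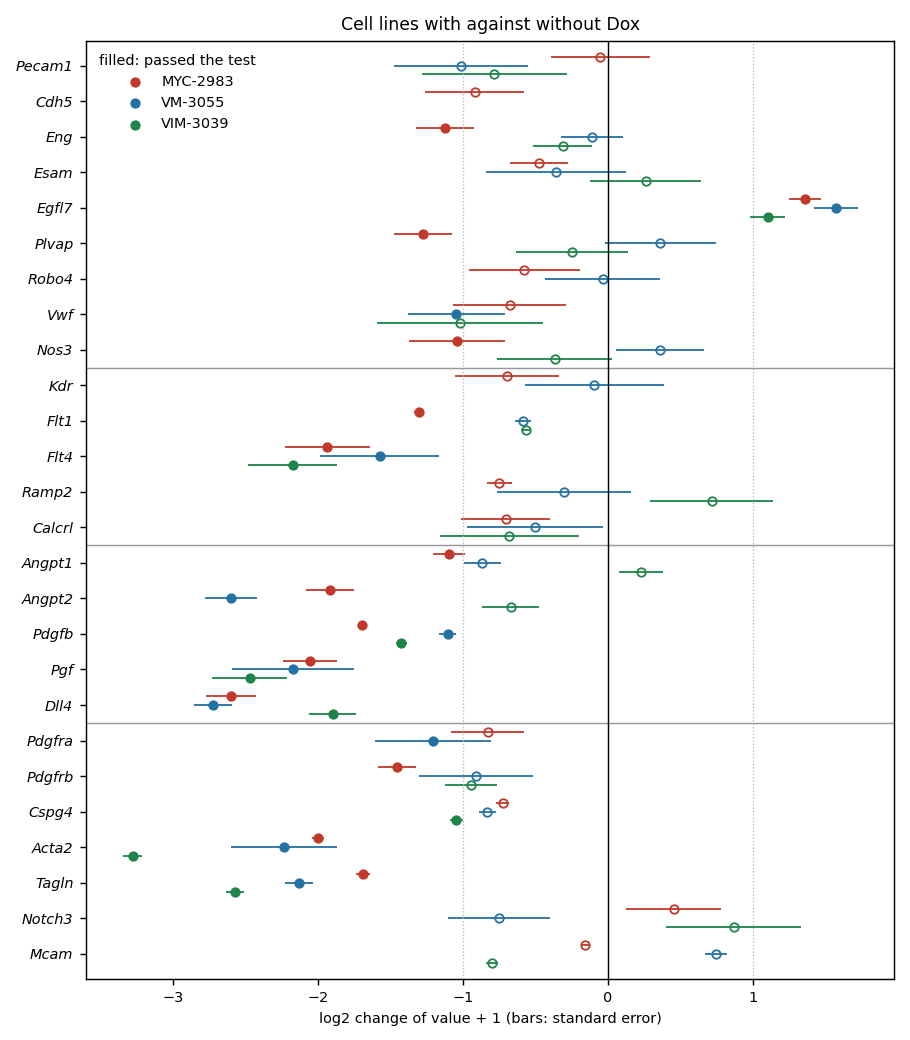
Change with against without Dox for the members tested in at least 1 line (log2 of value + 1; points, fitted change; bars, standard error; filled, past the test). Egfl7 lies right of 1 in all 3 lines (1.36, 1.57 and 1.10), and Pdgfb, Pgf, Dll4, Acta2 and Tagln lie left of −1.

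The Dox effect differed between VIM-3039 and VM-3055 for 5 of 27 members, 3 higher and 2 lower (3.7% and 2.35% of genes), by the line by Dox interaction. Angpt2 fell with Dox in VM-3055 from 196, 215, 209 and 176 to 31.04, 50.2, 22.9 and 28.9 units and changed from 39.9, 31.2, 41.8 and 41.5 to 28.5, 27.04, 24.3 and 16.97 in VIM-3039, a difference of 1.93 ± 0.28 (adjusted p = 1.61e-05). Mcam measured 353, 344, 345 and 327 units with and 187, 223, 189 and 216 without Dox in VM-3055, and 1222, 1162, 1184 and 1194 with and 2209, 1899, 2066 and 2125 without it in VIM-3039, a difference of −1.55 ± 0.08 (adjusted p = 2.17e-12). The Mcam groups did not overlap in either line and lay in opposite order. Angpt2 and Mcam were well above the floor in all 16 libraries. Angpt1 changed by 0.23 ± 0.15 (VIM-3039) and −0.86 ± 0.13 (VM-3055), a difference of 1.10 ± 0.20 (adjusted p = 0.000233). Acta2 (−1.05 ± 0.30, adjusted p = 0.00886) and Notch3 (1.62 ± 0.57, adjusted p = 0.0325) rest on VM-3055 values at or near the floor. Angpt1 lost the call without VM-3055 library 4 with Dox (0.99) or VIM-3039 library 1 with Dox (0.99). Acta2 lost it without library 1 of VM-3055 with Dox (−0.87), library 1 (−0.93) or 3 (−0.99) of VM-3055 without Dox or library 1 of VIM-3039 with Dox (−0.98), and Notch3 without any of 5 libraries (adjusted p = 0.0513 to 0.0643). With a pseudocount of 0.1 the Acta2 difference turned to 0.24 (adjusted p = 0.841). The balance of calls over all genes moved from 61.2% higher to 52.1% after TMM rescaling and 48.8% after quantile normalization, where 4 and 5 members passed.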

How the data were processed

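RNA was measured by paired-end RNA-seq of polyadenylated RNA (TruSeq Stranded mRNA) in 38 libraries. The authors aligned reads to mm9 with MapSplice, processed alignments with Picard 1.64 and SAMtools, estimated gene-level expression with RSEM and divided each library by its upper quartile, so that the deposited values are a signal in units of 1000 per upper quartile and not counts. In each library the smallest step gave the worth of 1 read, and 94.4% to 95.8% of low values were whole reads within 0.02. The steps were not whole for nearly all genes, so no count test was run as the main test. The depth of each library was estimated from this worth, and a floor of 3 reads is its detection limit. Counting error only is covered by that floor.

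The members and all gene lists were chosen with earlier results of these data known. Groups came from the sample labels; the line numbers of the VM and VIM cells came from the paper. Each comparison was fitted across all genes with limma 3.58.1 in R 4.3.3 (eBayes with a trend) on log2(value + 1) over the groups compared, after the MYC tumours of mouse 2983 were averaged. Genes above 0 in at least 2 units (tissue) or 4 libraries (cells) were tested. The threshold was 0.05 for the p adjusted over all genes tested (Benjamini-Hochberg) and 1 for the absolute change, in two-sided tests. On this scale changes of low genes are understated. For the line by Dox interaction, VIM-3039 and VM-3055 entered a single fit with 16 libraries. Values in every tissue library are given for members that passed against kidney or between genotypes, and the other members are given by range. Genes that are not members are named only from the lists, for the 2 largest and 2 smallest changes that passed, with Vegfa and the engineered genes added; Umod, Nphs1, Pax8, Cd68, Postn and the index genes named for the lines were chosen after their values were seen, and 1 gene of the cell type lists is not reported here. Alternatives were pseudocounts of 0.1 and 10, other filters, TMM and quantile scaling, all tissue groups in 1 fit, subsets of kidneys, the replicate number as a block and each library left out. A limma voom fit on recovered reads, and MYC tumours 2 and 3 left out singly, were added after the data were seen. The fits were tested on simulated data. Promoters are from RefSeq on GRCm38.p6, and gene overlaps from the NCBIM37 annotation. Python 3.11.15 with matplotlib 3.10.9 drew the plots.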

Additional observations from a re-analysis of the deposited data

Results flagged for a closer look

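Of 128 member and group pairs with 4 or 5 libraries, 8 held a library far from the others, where chance flags about 1 in 20. Kidney 5 stood above the other kidneys for Flt4 (245 units against a median of 148), Tie1 (708 against 435), Angpt2 (138 against 40.2) and Pdgfra (663 against 283). That kidney was the highest of 5 for 29 of 34 members. In MYC-2983 cells with Dox, library 2 was low for Eng (8.16 units against a median of 14.6) and Pdgfrb (36.4 against 58.4). In MYC-2983 cells without Dox, library 2 was high for Angpt1 (128 against 105 units) and library 4 for Acta2 (71099.6 against 66903 units).

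The Dox effect in VIM-3039 less that in VM-3055 differed, by the interaction test, for Angpt1 (1.10 ± 0.20, adjusted p = 0.000233), Angpt2 (1.93 ± 0.28, adjusted p = 1.61e-05), Acta2 (−1.05 ± 0.30, adjusted p = 0.00886), Notch3 (1.62 ± 0.57, adjusted p = 0.0325) and Mcam (−1.55 ± 0.08, adjusted p = 2.17e-12). Mcam changed by 0.75 ± 0.08 in VM-3055 and by −0.80 ± 0.04 in VIM-3039, both short of the size threshold, with no overlap between libraries with and without Dox in either line.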

How the results depend on the processing

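Of 243 member results that passed, 178 passed under every alternative run; over all alternatives, 3528 of 3737 values kept their direction and call, 203 lost the call and 6 changed sign. The planned count model (edgeR) was not run, because recovered reads were not whole for nearly all genes; limma voom on them, added later, called 23, 24 and 27 members against kidney and 0, 0 and 1 between genotypes. Against the 2 B6 kidneys alone, VM tumours gave 12 members (3 higher, 9 lower) in place of 25. How many of all genes lost the call in that subset is not given here. VM against MYC tumours gave 1 (Angpt1) with all tissue in 1 fit or with the libraries of mouse 2983 kept separate, and VIM against MYC tumours gave 1 in the former. VIM against VM tumours gave 0 with no filter. Dox in MYC-2983 gave 9 with a pseudocount of 10 and in VM-3055 gave 5 with it and 5 with a mean of at least 10 units; the interaction gave 3 with pseudocounts of 0.1 or 10 or no filter.

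Leaving out 1 library gave 21 to 26 members in MYC, 22 to 30 in VM and 27 to 29 in VIM tumours against kidney; 0 to 1 for VM against MYC, 0 for VIM against MYC and 0 to 1 for VIM against VM tumours; 24 to 27, 28 to 31 and 30 to 31 against the lines; 13 to 15, 9 to 11 and 8 to 10 for Dox; 2 to 5 for the interaction (2 without VIM-3039 with Dox library 1, 3 without VM-3055 without Dox library 1); and 11 to 20, 11 to 20 and 13 to 19 relative to the index, with 20 in MYC tumours without MYC tumour 2. Among results that had not passed, signs changed for Acta2 (−2.68 to 1.64 over left-out libraries, the highest without MYC tumour 1) and Pgf (−2.03 to 2.78, the lowest without MYC tumours 2 and 3) in MYC tumours against kidney. Pgf against MYC-2983 (−2.35 to 2.46, lowest without the same pair) had not passed either. The 6 sign changes of results that had passed began with Pgf in MYC tumours relative to the index (−0.11 to 4.58, lowest without that pair). The others were Nos3 (−0.94), Pgf (−0.30) and Dll4 (−0.56) in VIM tumours against VIM-3039 under quantile normalization, the Acta2 interaction (0.24, pseudocount 0.1) and Nos3 in VM tumours relative to the index (0.0502, pseudocount 10). The causes were not tested, and the ranges that involve MYC tumours include fits that left a single MYC unit. Over well expressed genes (50 units or more on average), TMM rescaling moved the median change from 0.12 to −0.00 in MYC tumours against kidney and from −0.17 to 0.07 for Dox in VM-3055.

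Replicate numbers did not pair the libraries: same-numbered ones correlated at −0.307 to −0.0463 in VM-3055 and −0.0622 to 0.108 in VIM-3039. With the replicate block 11 members passed in VM-3055 (10 lower), 8 in VIM-3039 and 5 in the interaction.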
